A study of Mus musculus with 9 samples.

Results

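The let-7 family was followed in the mouse liver across a chow diet, a high fat diet and a high fat diet with metformin. Its members were the 9 mature miRNAs mmu-let-7a-5p, mmu-let-7b-5p, mmu-let-7c-5p, mmu-let-7d-5p, mmu-let-7e-5p, mmu-let-7f-5p, mmu-let-7g-5p, mmu-let-7i-5p and mmu-miR-98-5p, taken by their names in the scanner files, of 1881 mouse miRNAs on the array. The species prefix mmu is left out below. RNA came from whole liver of male C57BL/6J mice, an inbred strain, sampled at 20 weeks of age, and was measured on 9 one-colour Agilent arrays. Control mice were fed chow for 17 weeks from the age of 3 weeks. High fat diet mice had a diet providing 45% of energy as fat for those 17 weeks and were gavaged with saline during the last 5 weeks. Metformin mice had the same fat-rich diet and were gavaged with metformin at 3 mg/kg/day during the last 5 weeks. The sources used here do not say whether control mice were gavaged. Each group had 3 arrays, and each array read a pool of liver from 4 mice, so errors and p-values refer to pools and not to single mice.

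The let-7 miRNAs are small RNAs cut from hairpin precursors. They guide Argonaute proteins to messenger RNAs that pair with the seed, bases 2 to 8 of the miRNA, and lower the output of those messenger RNAs. LIN28 proteins, present in embryonic and regenerating cells, block the maturation of let-7 precursors, and adult differentiated tissues, the liver included, hold much mature let-7. Targets known from other work include growth genes and genes of the insulin signalling pathway, which makes the family a candidate in studies of diet and of metformin, a drug that lowers glucose output by the liver.

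The mature sequences show how alike the 9 members are and where they differ, which bears on what an array probe can tell apart. They are from RefSeq (GRCm38.p6), 5′ to 3′, with the seed in capitals, and all 9 members matched by name.
let-7a-5p: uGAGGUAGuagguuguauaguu
let-7b-5p: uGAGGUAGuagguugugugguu
let-7c-5p: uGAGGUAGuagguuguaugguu
let-7d-5p: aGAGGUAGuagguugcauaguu
let-7e-5p: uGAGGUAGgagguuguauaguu
let-7f-5p: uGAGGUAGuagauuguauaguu
let-7g-5p: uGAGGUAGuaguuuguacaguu
let-7i-5p: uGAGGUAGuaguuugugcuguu
miR-98-5p: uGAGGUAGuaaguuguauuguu
The seed GAGGUAG was the same in all 9. Counted from 1 at the 5′ end and read from let-7a-5p to the other member, let-7c-5p differed by A19G, let-7b-5p by A17G and A19G, let-7d-5p by U1A and U16C, let-7e-5p by U9G, let-7f-5p by G12A and let-7g-5p by G12U and U18C. miR-98-5p differed by G11A and A19U, and let-7i-5p, the most distant from let-7a-5p, by G12U, A17G, U18C and A19U. Over the 36 pairs of members the number of differing bases was 1 to 6, and 4 pairs differed by 1 base. The files hold no probe sequences. A probe for one member may therefore also bind others, and the arrays cannot tell how much of a signal each gave.

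The members come from several loci, and some lie in clusters. On GRCm38.p6, let-7a-5p (chr13:48538239-48538260), let-7f-5p (chr13:48537889-48537910) and let-7d-5p (chr13:48536078-48536099) lie together on the minus strand. let-7c-5p (chr15:85706616-85706637) and let-7b-5p (chr15:85707325-85707346) lie together on the plus strand, within the span of the noncoding gene Lncppara. let-7c-5p has a further copy beside Mir99a (chr16:77599672-77599693, plus strand), and let-7a-5p one beside Mir100 on chromosome 9. let-7e-5p (chr17:17830366-17830387, plus strand) lies within the span of Spaca6, 98 bases from Mir99b and 367 bases from Mir125a. A further copy of let-7f-5p (chrX:151912353-151912374) and miR-98-5p (chrX:151913229-151913250) lie on the plus strand within the span of Huwe1, a gene for a ubiquitin ligase. let-7g-5p (chr9:106178846-106178867, plus strand) lies within the span of Wdr82, and let-7i-5p (chr10:122985698-122985719, minus strand) stands alone. An array reads the mature RNA, so the copies of let-7a, let-7c and let-7f could not be told apart.

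Most arrays had a defect that had to be dealt with first. On 6 of the 9 arrays (3 control, 2 high fat diet, 1 metformin), many spots of bright probes lacked signal in strips of columns at the left or right edge, and 31.1% to 53.6% of the miRNA spots of those arrays lay in the strips. Inside the strips 63.8% to 88.5% of the bright spots of an array read under 50% of their probe's level, and outside them at most 0.935%, so the strips also hold spots with signal. Levels are therefore given with the strips left out, and the reading that used all spots stands beside the results. A level is the log2 of a probe's intensity over its array's 75th percentile across probes detected on all arrays. Probes differ in brightness, so the level of one member is not set against that of another. Arrays correlated at r = 0.987 to 0.998 within groups and 0.977 to 0.995 between groups across the 143 tested miRNAs, which are not independent replicates. No spot was saturated. The hepatocyte miRNAs miR-122-5p, miR-192-5p and miR-194-5p were detected on all arrays, and the neuron and pancreas markers (2 and 3) on none. Muscle markers were on 1 to 3 arrays each: on high fat diet array 3, miR-133a-3p read -0.11 and miR-1a-3p -0.44, against -3.68 or below for both on each of the other arrays. Of the 5 leukocyte markers 2 were tested, of 2 endothelial markers 1 and of 5 stellate and mesenchymal markers 2. Among these markers miR-199a-3p, of stellate and mesenchymal cells, was the only one that passed in any of the 3 comparisons with the strips left out. It was higher with the high fat diet (0.31, SE 0.08, adjusted p = 0.0301 by limma). With all spots it did not pass (0.57, SE 0.23, adjusted p = 0.158 by limma), and the groups overlapped. In whole liver, fewer cells of a type and less RNA per cell cannot be told apart.

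With the strips left out, 8 of the 9 members were detected on all 9 arrays. miR-98-5p was detected on 2 of 3 control arrays and on all 6 others. Its brighter probe read near the floor of the scale, -4.62, and its other probe was at the floor on every array. Spot intensities show the range: the let-7b-5p probe read 1338 to 2316 per array, the miR-98-5p probe 17.8 at most, over local backgrounds of 16 to 21 that had been subtracted. The spread between the spots of a probe on an array had a median of 4.17% (coefficient of variation) for let-7a-5p and 23.4% for miR-98-5p.

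The first comparison, high fat diet against control, sets mice on the fat-rich diet with saline gavage beside mice on chow. Gavage of the controls is not known, and the arrays of these groups never shared a row of the same slide, as described below. Diet, gavage and place on the slides therefore cannot be told apart here. The differences of the let-7 members were small. 7 members were higher and 2 lower, with a median log2 difference of 0.07 (range -0.17 to 0.20) beside 0.03 over all 143 tested miRNAs. Of the 9 members 0 passed an adjusted p of 0.05 by limma and 1 had an unadjusted p under 0.05. Of all tested miRNAs 14% passed the adjusted threshold (20 of 143) and 35.7% had an unadjusted p under 0.05. Groups did not overlap for 2 members (let-7i-5p higher, miR-98-5p lower), against 37.1% of all tested miRNAs. The 95% intervals of the 9 differences reached from -0.40 to 0.38, or 0.758-fold to 1.30-fold. Each interval was set for 1 member alone, with the strips left out, and not for all 9 together. With all spots let-7a-5p (-0.46), let-7b-5p (-0.67) and let-7f-5p (-2.21) lay outside that range, and the other tested members inside it.

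let-7i-5p stood furthest from 0 on the upward side. It read -0.15, -0.08 and -0.08 in controls, 0.09, 0.13 and 0.08 with the high fat diet, and -0.11, -0.10 and -0.01 with metformin. Each high fat diet array exceeded the 6 others, and the control and metformin arrays overlapped. The difference between high fat diet and control was 0.20 (SE 0.08, adjusted p = 0.104 by limma, unadjusted 0.0277), with a 95% interval from 0.03 to 0.38. The dimmer probe for the same miRNA gave 0.19. It read -1.73, -1.91 and -1.68 in controls and -1.52, -1.55 and -1.66 with the high fat diet, again with no overlap. Under quantile normalization let-7i-5p passed (0.27, adjusted p = 0.0144). With all spots it stood at 0.16 (adjusted p = 0.605). Over 25 alternative settings its adjusted p lay between 0.0144 and 0.742, and its sign did not change.

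miR-98-5p, read by a dim probe, lay on the other side. It read -4.07, -4.05 and -3.84 on control arrays, -4.11, -4.18 and -4.18 with the high fat diet and -4.30, -4.28 and -4.05 with metformin. The high fat diet arrays were all below the controls, by a mean of 0.17 (difference -0.17, SE 0.10, adjusted p = 0.234 by limma). One of the control values came from an array on which the probe was not detected. With all spots the probe was detected on 0 of 3 control arrays and was not tested. It then read -4.64, -5.05 and -4.70 in controls and -4.84, -4.79 and -5.01 with the high fat diet, overlapping. A limma fit to the authors' deposited table gave 1.23 (SE 1.02, adjusted p = 0.742). There control array 2 was at -4.38 and the other controls at -0.13 and -0.40. Over 22 alternative settings the difference lay between -0.25 and 1.23, and its sign changed in 3.

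The 3 members with a copy in the chromosome 13 cluster differed little. let-7a-5p read 2.25, 2.36 and 2.38 in controls and 2.52, 2.40 and 2.36 with the high fat diet (0.10, SE 0.10, adjusted p = 0.513 by limma). let-7d-5p read 1.30, 1.28 and 1.20 against 1.43, 1.27 and 1.34 (0.09, adjusted p = 0.526). For each the ranges of both groups overlapped. let-7f-5p, whose reading is described below, stood at 0.07 (SE 0.12, adjusted p = 0.725).

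The pair with a copy on chromosome 15 hardly differed between these groups. let-7b-5p was at 2.85 ± 0.05 in controls and 2.87 ± 0.03 with the high fat diet (SD, n = 3 each). let-7c-5p was at 2.52 ± 0.02 and 2.54 ± 0.04. let-7g-5p was at 2.11 ± 0.03 and 2.21 ± 0.11, with high fat diet arrays at 2.30, 2.23 and 2.08 around the control range. let-7e-5p was at -1.80 ± 0.15 and -1.85 ± 0.02.

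**Figure D1:**
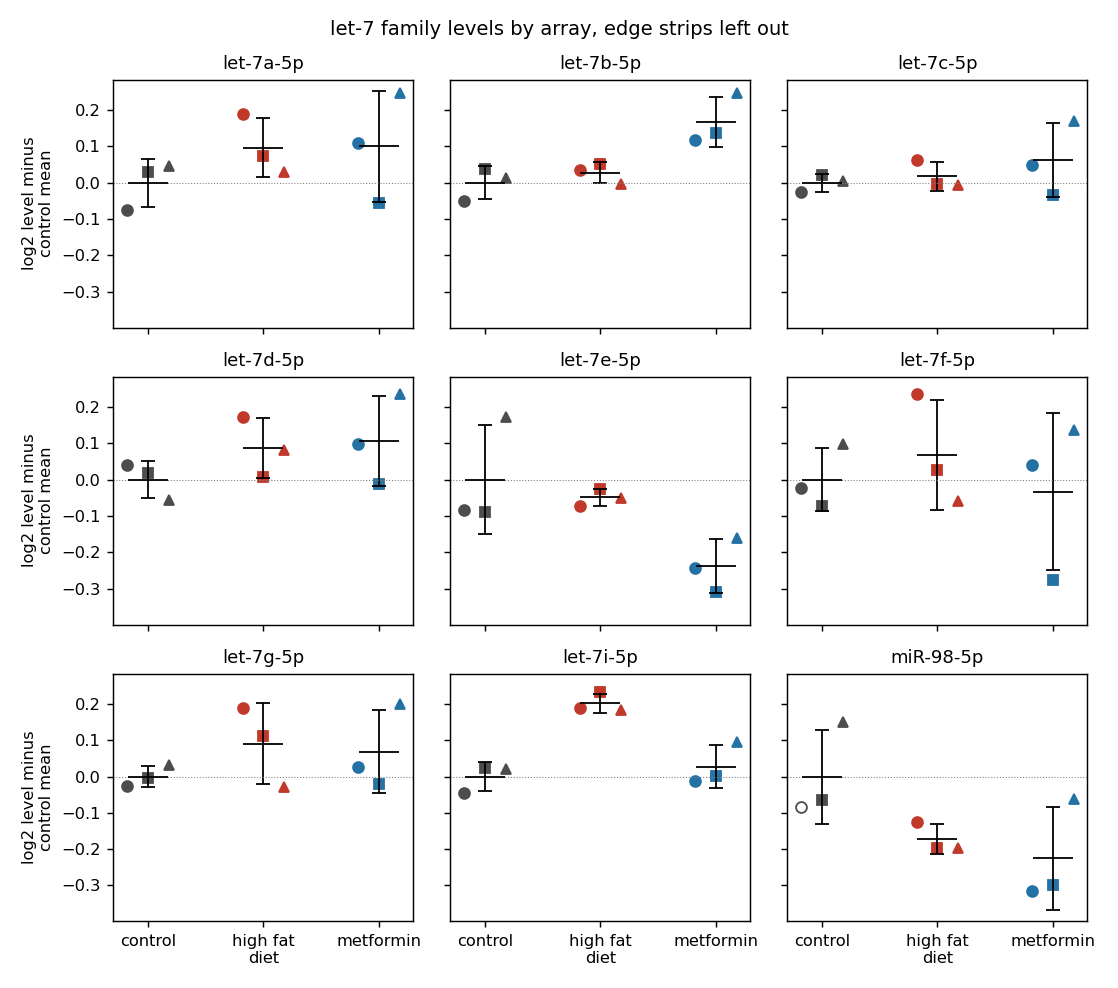
Levels of the 9 members on each array, strips left out, as log2 level minus the mean of the control arrays (y axis) by group (x axis). Circles, squares and triangles are replicates 1, 2 and 3 of a group, an open symbol is an array where the probe was not detected, and bars are the mean ± SD (n = 3). The let-7i-5p high fat diet arrays (0.09, 0.13 and 0.08 as levels) lie above all others, and the third metformin array is the highest of its group in all 9 panels.

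The second comparison, metformin against high fat diet, asks what the drug did in mice kept on that diet. Here 4 members were higher and 5 lower, with a median difference of -0.02 (range -0.19 to 0.14) beside -0.06 over all tested miRNAs. By limma 0 of the 9 members passed the adjusted threshold and 0 had an unadjusted p under 0.05, while 1.4% of all tested miRNAs passed (2 of 143) and 9.09% had an unadjusted p under 0.05. Groups did not overlap for 3 members (let-7b-5p higher, let-7e-5p and let-7i-5p lower), against 20.3% of all tested miRNAs. The 95% intervals of the members reached from -0.40 to 0.32, or 0.757-fold to 1.25-fold.

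let-7b-5p read 2.88, 2.90 and 2.84 with the high fat diet and 2.96, 2.98 and 3.09 with metformin. The metformin arrays lay above all 6 others, the controls being at 2.79, 2.88 and 2.86. The difference was 0.14 (SE 0.08, adjusted p = 0.522 by limma), and its dimmer probe gave 0.13. let-7e-5p read -1.87, -1.82 and -1.85 with the high fat diet and -2.04, -2.11 and -1.96 with metformin, below all 6 others, as controls were at -1.88, -1.89 and -1.63. Its difference was -0.19 (adjusted p = 0.435), and both of its probes gave -0.19. On its dimmer probe metformin (-3.90, -4.30 and -3.99) overlapped both other groups. That probe read -3.68, -3.95 and -4.00 with the high fat diet and -3.97, -3.85 and -3.63 in controls. let-7i-5p was at -0.17 (adjusted p = 0.435, unadjusted 0.0508). With all spots let-7b-5p stood at 0.47 (adjusted p = 0.383), let-7e-5p at -0.01 and let-7i-5p at 0.05, the last with the other sign. let-7a-5p and let-7d-5p stood at 0.00 and 0.02, and let-7g-5p at -0.02.

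Against control, the metformin group combined diet, drug and gavage, and gavage of the controls is not known. 6 members were higher and 3 lower, with a median difference of 0.06 (range -0.24 to 0.17) beside -0.00 over all tested miRNAs. By limma 0 of 9 passed the adjusted threshold and 1 had an unadjusted p under 0.05, while 1.4% of all tested miRNAs passed (2 of 143) and 21% had an unadjusted p under 0.05. Groups did not overlap for let-7b-5p (0.17, adjusted p = 0.223) and let-7e-5p (-0.24, adjusted p = 0.189, unadjusted 0.0311), against 25.9% of all tested miRNAs. With all spots let-7b-5p stood at -0.20, with the other sign and overlapping groups, and let-7e-5p at -0.09. With the strips left out miR-98-5p stood at -0.23 (adjusted p = 0.220) and let-7i-5p at 0.03 (adjusted p = 0.867). The 95% intervals reached from -0.45 to 0.35, or 0.731-fold to 1.27-fold. Any pair of these comparisons shares the arrays of a group, so their values are not independent. With 3 arrays a group, an exact permutation test of one value cannot go below p = 0.1.

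**Figure D2:**
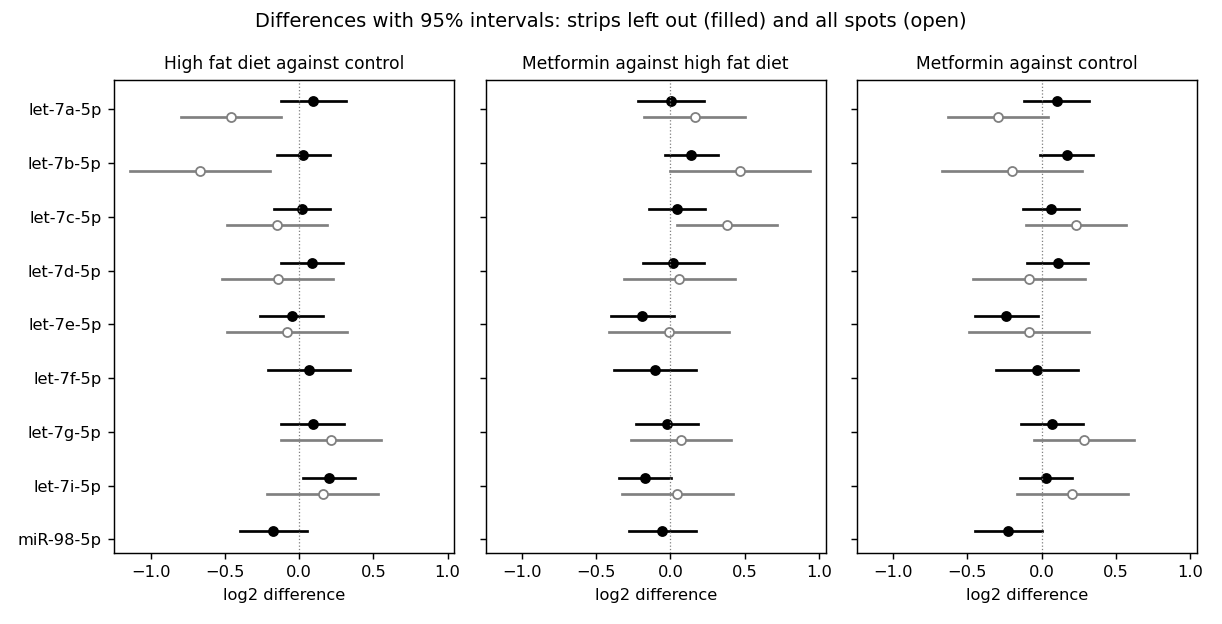
Log2 differences of the members (x axis) with 95% intervals by limma in the 3 comparisons, strips left out (filled) and with all spots (open). let-7f-5p with all spots is not drawn because its interval runs off the axis, and miR-98-5p was not tested with all spots. With the strips left out the intervals lie between -0.45 and 0.38, while with all spots let-7a-5p and let-7b-5p stand at -0.46 and -0.67 for high fat diet against control.

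The erythroid miRNA miR-451a did not pass, but all metformin arrays lay below all others. It read -1.57, -0.13 and -1.07 in controls, -0.91, -0.53 and -0.99 with the high fat diet and -1.72, -1.94 and -1.80 with metformin (-1.01 against high fat diet, adjusted p = 0.158 by limma, and -0.82 with all spots, adjusted p = 0.383). The other erythroid markers were undetected (miR-144-3p) or on 1 array (miR-486a-5p). The part of red blood cell RNA in the let-7 values was not tested. The arrays also lay unevenly on their slides. The high fat diet arrays and metformin array 1 were in row 1 of a slide. Row 2 of that slide held metformin arrays 2 and 3 with control arrays 1 and 2. High fat diet and control arrays therefore never shared a row of the same slide. Within the first row metformin minus high fat diet was -0.20 for let-7e-5p, 0.09 for let-7b-5p and -0.21 for let-7i-5p (1 against 3 arrays). Within the second row metformin minus control was -0.15 for let-7e-5p, 0.20 for let-7b-5p and 0.06 for let-7i-5p (2 against 2 arrays). With the row as a block, and control array 3 left out, high fat diet against control gave 0.27 for let-7i-5p (adjusted p = 0.320 by limma). In that fit 0 of all 143 miRNAs passed. It kept control arrays 1 and 2 and linked high fat diet with control only through the metformin arrays. Whether its lost calls rest on the row or on the fewer arrays cannot be told. Control array 3 lay in row 1 of a slide of its own. Without it let-7e-5p stood at -0.15 for metformin against control (adjusted p = 0.322), and let-7i-5p at 0.21 for high fat diet against control (adjusted p = 0.104).

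Using all spots moved some members by more than the groups differed. With all spots 8 members were tested, and 0 passed in any of the 3 comparisons by limma, where 6.47%, 0% and 0% of all 139 tested miRNAs passed. Unadjusted p-values under 0.05 numbered 2, 2 and 0 among the members, against 23%, 10.8% and 10.8% of all tested. The members' medians were -0.15 for high fat diet against control, 0.12 for metformin against high fat diet and 0.06 for metformin against control, beside -0.22, 0.16 and 0.02 over all tested miRNAs. Groups did not overlap for 2, 3 and 3 members, against 23%, 22.3% and 21.6% of all tested.

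let-7b-5p shows the shift. With all spots it read 2.69, 2.98 and 2.62 in controls and 1.64, 2.18 and 2.46 with the high fat diet, with no overlap and a difference of -0.67 (adjusted p = 0.0960 by limma). With the strips left out the same probe gave 0.03. let-7a-5p likewise went from -0.46 (adjusted p = 0.0975) to 0.10. let-7g-5p (0.21 and 0.09) and let-7i-5p (0.16 and 0.20) kept their sign. The 2 probes of a member also lay closer without the strips. With the strips left out 7 members had 2 detected probes, and the largest gap between the differences of the probes was 0.05, with the same sign in 7, 6 and 6 of 7 members in the 3 comparisons. With all spots 5 members had 2 such probes, the largest gap was 0.35, and the sign was shared in 5, 4 and 2 of 5.

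let-7f-5p was the extreme case. Its brighter probe, with 15 spots per array, had 13 spots inside the strip of high fat diet array 1, where 88 of 164 columns at the right edge were left out. The 2 spots outside read 1198 and 1309, and the highest inside read 927. The other spots inside read 13.9 or less, with the lowest at -1.35 after background subtraction. The scanner software marked just those 3 bright spots as outliers, which left the spots without signal to stand for the miRNA. In that reading let-7f-5p was at the floor of -5.20 on high fat diet array 1 and between 0.75 and 1.93 on the other 8 arrays. Its difference from control was then -2.21 with an SE of 1.39 (adjusted p = 0.391 by limma), and from high fat diet to metformin 2.54 (adjusted p = 0.479). On high fat diet array 2, which had no strips, all 15 spots of the probe read between 1217 and 1463.

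**Figure D3:**
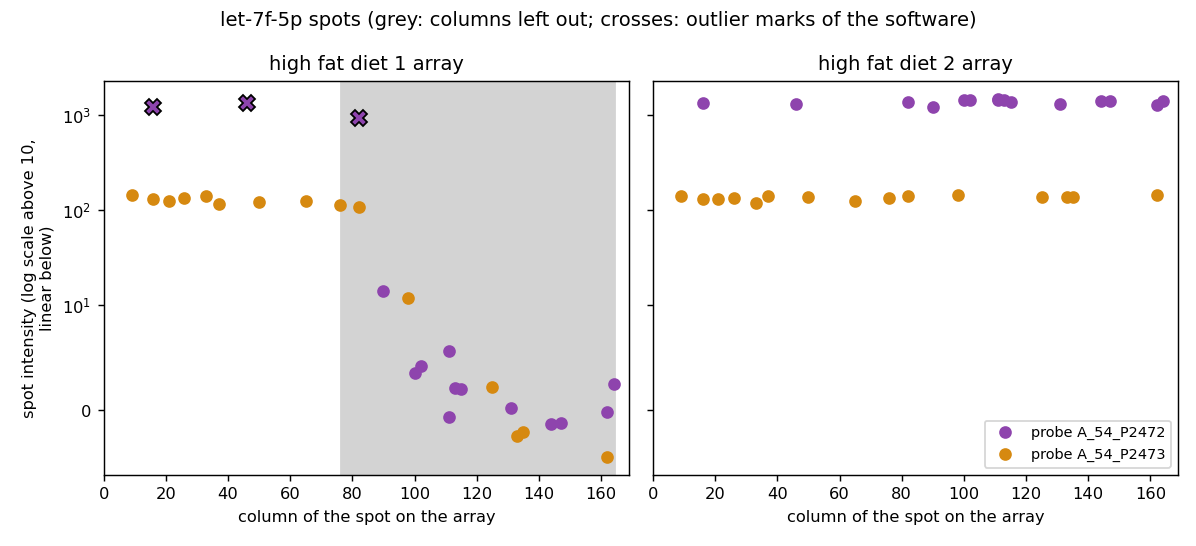
Intensity of the let-7f-5p spots (y axis, logarithmic above 10 and linear below) by column of the array (x axis) on high fat diet arrays 1 and 2, for both probes. Grey marks the columns left out and crosses the spots marked as outliers by the scanner software. On array 1 the spots at 1198, 1309 and 927 are the marked ones, and on array 2 the same probe reads 1217 to 1463 in all columns.

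That array also stood apart in the authors' deposited table. There let-7f-5p was 3.43 on high fat diet array 1 and 5.55 to 6.26 on the other 8 arrays. A limma fit to the authors' deposited table gave -0.90 for high fat diet against control (adjusted p = 0.720). Outside the strips the brighter probe read 2.26, 2.22 and 2.28 in controls, 2.50, 2.31 and 2.21 with the high fat diet and 2.23, 2.09 and 2.43 with metformin. High fat diet array 1, at the floor with all spots, was the highest of the 9 in this reading, though with only 2 spots. A minimum of 3 spots on every array was required, so the dimmer probe stood for let-7f-5p. It read -1.10, -1.15 and -0.98 in controls, -0.84, -1.05 and -1.13 with the high fat diet and -1.03, -1.35 and -0.94 with metformin. All 3 groups overlapped (0.07, -0.10 and -0.03 in the 3 comparisons). With a minimum of 2 spots, chosen after seeing the data, the brighter probe returned and gave 0.14 for high fat diet against control (SE 0.10, adjusted p = 0.316).

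**Figure D4:**
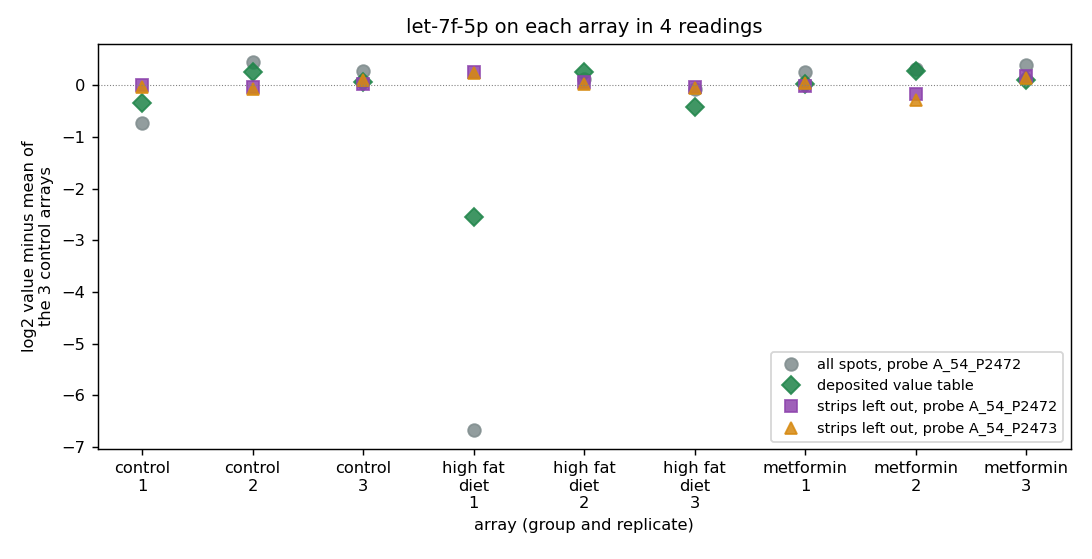
let-7f-5p on the 9 arrays (x axis) in 4 readings, each as its log2 value minus its own mean over the 3 control arrays (y axis). High fat diet array 1 is at the floor (-5.20 as a level) with all spots and low in the deposited table (3.43), while for both probes outside the strips it is the highest of the 9 arrays (2.50 and -0.84 as levels).

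The order of the pools within a group was shared by all members in 1 respect: metformin array 3 was the highest of its group in 9 of 9 members, as in 49% of all tested miRNAs. Metformin array 2 was the lowest in 6 members (36.4% of all tested). High fat diet array 1 was the highest in 6 members (49%) and high fat diet array 3 the lowest in 7 (53.1%), while let-7e-5p was lowest on high fat diet array 1. Control array 1 was the lowest in 6 members (44.1%) and control array 3 the highest in 5 (54.5%), while let-7d-5p was lowest on control array 3. The mean over the 9 members, minus the control mean, ran from -0.10 on metformin array 2 to 0.12 on metformin array 3, so the spread within that group was as wide as that over all 9 arrays. What these shifts rest on was not tested.

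Read against the family mean within each array, a few members stood apart. let-7i-5p was 0.16 above its control position with the high fat diet and 0.02 above it with metformin. let-7b-5p was 0.16 above it with metformin and -0.01 from it with the high fat diet. let-7e-5p was at -0.09 and -0.24, and miR-98-5p at -0.21 and -0.23. let-7a-5p, let-7c-5p, let-7d-5p and let-7g-5p stayed between -0.02 and 0.10. These are ratios within an array and show unequal differences between members, with no test. The root mean square distance between centred profiles of members over the 9 arrays was 0.05 to 0.16 (log2) for the 4 pairs with 1 differing base and 0.05 to 0.19 for the 11 pairs with 3.

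Of the 134 tested miRNAs outside the family, the profile nearest to the family mean over the 9 arrays was that of miR-16-5p, at a root mean square distance of 0.046 (log2). miR-103-3p followed at 0.053, miR-30a-3p at 0.057, miR-26a-5p at 0.067 and miR-93-5p at 0.068. The differences of these 5 between groups lay between -0.12 and 0.10. They were picked for nearness to the family mean on these same arrays, so small differences follow from the choice. let-7a-5p itself stood at 0.051 from that mean, of which it is a part.

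The other products of the let-7 genes and clusters were undetected or did not pass. The 11 3p arms of the let-7 and miR-98 hairpins, the passenger strands, were detected on 0 arrays. let-7k and miR-1961, which carry the same seed GAGGUAG, and let-7j, with the seed GAGGUAU, were also detected on 0 arrays. Of 5 miRNAs of clusters shared with let-7 genes, 4 were tested and 0 passed in any comparison, by limma at the adjusted threshold, in either reading. miR-99b-5p was undetected. miR-125b-5p read -0.83, -0.84 and -0.82 in controls, -0.57, -0.69 and -0.62 with the high fat diet and -0.75, -0.97 and -0.75 with metformin. Each high fat diet array exceeded the 6 others, as for let-7i-5p, with 0.20 against control (unadjusted p = 0.0456, adjusted p = 0.136 by limma) and -0.19 from high fat diet to metformin (adjusted p = 0.435). With all spots these were 0.00 and 0.02, and the groups overlapped. miR-125a-5p, from the let-7e cluster, stood at -0.26 for metformin against control (adjusted p = 0.223), beside -0.24 for let-7e-5p. With all spots the values were -0.41 (adjusted p = 0.388) and -0.09. With the strips left out, control array 3, alone on its slide, read highest of the controls for both. miR-125a-5p was at -2.66 there against -2.99 and -3.13, and let-7e-5p at -1.63 against -1.88 and -1.89. The metformin and control arrays of miR-125a-5p overlapped in that reading. miR-99a-5p, from a let-7c cluster, stood at 0.15 for high fat diet against control (adjusted p = 0.222), and miR-100-5p at 0.07 (adjusted p = 0.712). With all spots they stood at 0.02 and -0.04.

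One miRNA with part of the let-7 seed did differ between groups. miR-202-3p (chr7:139957695-139957716, minus strand, within the span of the noncoding gene Gm16201) carries bases 2 to 7 of the seed and differs from let-7a-5p at 14 positions. Its sequence shows how far it lies from the family outside those bases, with bases 2 to 8 in capitals.
miR-202-3p: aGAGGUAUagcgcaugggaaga
It read -2.89, -2.77 and -2.62 in controls, -3.27, -3.50 and -3.58 with the high fat diet and -2.94, -2.92 and -2.82 with metformin. All high fat diet arrays lay below the other 6. It fell by 0.69 with the high fat diet (SE 0.11, adjusted p = 0.00458 by limma) and rose by 0.56 from high fat diet to metformin (SE 0.11, adjusted p = 0.0465). The first call held without each array in turn. The second was lost without high fat diet array 2 or 3 or without any 1 of the metformin arrays, with differences of 0.49 to 0.58 (adjusted p = 0.0806 to 0.225). With the slide row as a block, and control array 3 left out, the values were -0.56 and 0.52 (adjusted p = 0.179 and 0.361), and neither passed. With all spots they were -0.58 (adjusted p = 0.0464, and 0.0508 with the replicate number as a block) and 0.64 (adjusted p = 0.110), and with the mean over its detected probes -0.54 (adjusted p = 0.0174) and 0.51 (adjusted p = 0.0870). Over 25 alternatives the first call was lost in 5 and the second in 15, with adjusted p from 0.00065 to 0.717 and from 0.0026 to 0.967. On the same arrays the 9 let-7 members lay between -0.17 and 0.20 for high fat diet against control.

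**Figure D5:**
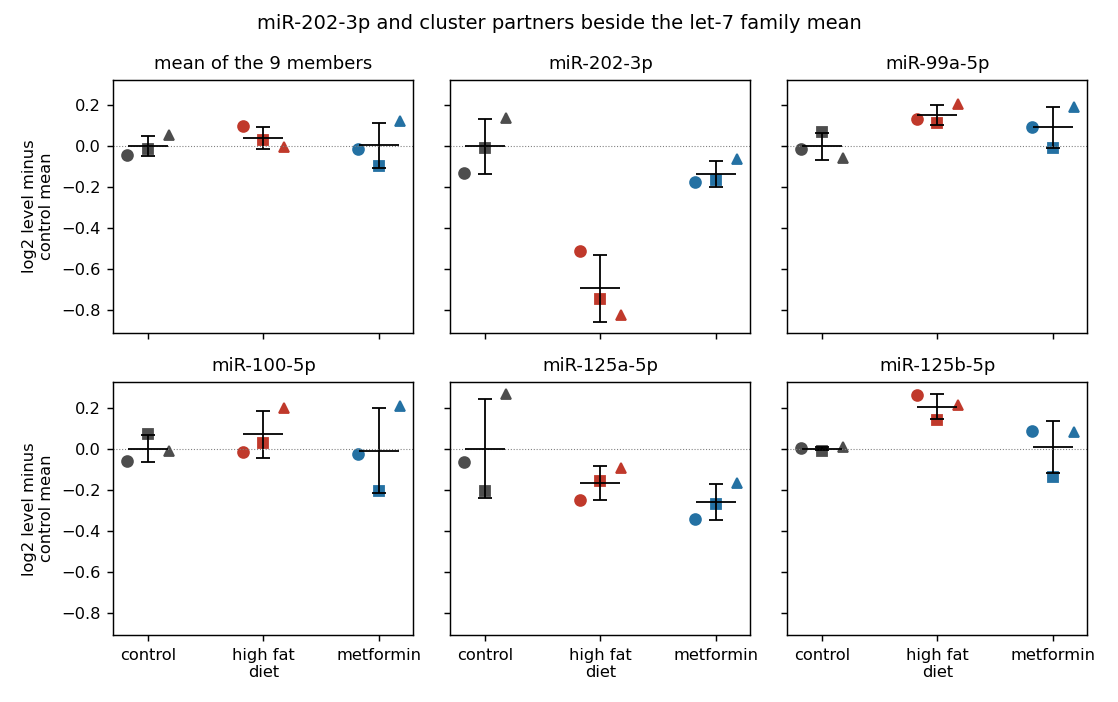
Log2 level minus the control mean (y axis) by group (x axis) for the mean of the 9 let-7 members, for miR-202-3p and for 4 miRNAs of clusters shared with let-7 genes, strips left out. Circles, squares and triangles are replicates 1, 2 and 3, and bars are the mean ± SD (n = 3). miR-202-3p is lower on all high fat diet arrays (-0.69 from control), while the family mean stays between -0.10 and 0.12 on every array.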

How the data were processed

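Each of 9 liver pools was hybridised to its own array. Per the file headers, the deposited scanner files hold spot intensity from Feature Extraction 11.5.1.1, background-subtracted and unscaled. The submitters' processing notes name version 10.7. The authors' deposited values per miRNA are on a log2 scale. When checked over detected miRNAs, they lay within 0.001 of the scanner software's log2 total signal shifted by a constant for each array, except for 16 of 1433 values on 5 arrays, and the sources used here do not say how the authors chose it.

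Edge columns were left out in steps of 4 while at least 10% of bright spots (probes with an 80th percentile over 100) read under 50% of that percentile. Each probe was then summarised by the median of spots not marked as non-uniform, with at least 3 on every array. Detection needed over a share of 0.5 of spots well above background. Values were scaled by the 75th percentile over 187 probes detected on all arrays (124 with all spots), floored at the 1st percentile of detected values and put on the log2 scale. The brightest probe stood for a miRNA. In the all-spots reading a probe was the mean of its spots without outlier marks. A miRNA was tested where 1 or more groups had it detected on every array.

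limma 3.58.1 (R 4.3.3, with files read by version 1.17.8 of data.table) fitted 3 group means to all tested miRNAs, two-sided, with Benjamini-Hochberg adjustment. The fitting was tested on simulated data. Strip finding was tested on high fat diet array 2 with planted strips in which every spot lacked signal, unlike the real strips. The number of arrays limits the precision: the median SE of a difference was 0.12. The members, the lists, the named miRNAs and the choice to leave out strips were made with earlier results of these data known. Named were all 9 members, tested miRNAs of let-7 clusters or with its seed, the 5 nearest profiles, and cell type markers. Scanner files held no mean signal, so the normexp alternative used median signals. The labels give no pairing of same-numbered pools. Their deviations correlated at -0.22 to 0.43 over the 3 pairs of groups with the strips left out, and with all spots at 0.23 to 0.51 for high fat diet and control, 0.20 to 0.41 for metformin and control, and -0.15 to 0.15 for metformin and high fat diet.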

Additional observations from a re-analysis of the deposited data

How the results depend on the processing

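Of 666 member differences recomputed over 25 alternative settings, 9 passed the adjusted threshold and 100 changed sign. None of the sign changes was in a member that had passed with the strips left out, since 0 had. Leaving out each array in turn gave 0 members past the threshold in each comparison. For high fat diet against control 1 member (let-7i-5p) passed under quantile normalization (0.27, adjusted p = 0.0144 by limma) and 1 with at least 2 spots per probe (let-7i-5p, 0.25, adjusted p = 0.0477), a setting added after seeing the data. For metformin against control 7 members passed with the 75th percentile taken over all probes, where 98 of 143 miRNAs passed and the median of all tested miRNAs was 0.80. There let-7f-5p turned from -0.03 to 0.78 and miR-202-3p from -0.13 to 0.68, and the members' medians were 0.61, 0.25 and 0.87 in the 3 comparisons, beside 0.56, 0.21 and 0.80 over all tested. The percentile then rested mostly on probes not detected on every array: of 4415 probes, 425 had too few spots and 187 counted as detected on all arrays. This scaling shifted all levels together, and the cause was not tested. The members' median for high fat diet against control was -0.15 with all spots and -0.044 in the deposited table. For metformin against high fat diet it was 0.12 with all spots and 0.12 with scaling by the median (0.08 over all tested there). The SD of the family median within groups was 0.09. Over all tested miRNAs high fat diet against control had 20 calls. They became 9 with all spots, 39 with the slide as a block and 28 with at least 2 spots. They became 1 with the 75th percentile over all probes, and 0 with the deposited table or no filter on dim probes. With the slide row as a block, which left out control array 3, 0 calls remained. Without 1 array they numbered 6 to 40. The 40 came without control array 3, the only array of its slide, so the slide block sets aside the same array. With the strips left out same-numbered pools did not all deviate together (r from -0.22 to 0.37 for high fat diet and control, -0.18 to 0.01 for metformin and high fat diet, and -0.24 to 0.43 for metformin and control). With the replicate block 0 members passed, the members' medians were 0.07, -0.02 and 0.06, 22 of all tested miRNAs passed for high fat diet against control, and miR-202-3p lost its call for metformin against high fat diet (adjusted p = 0.0696). With all spots every same-numbered pair that included a control correlated at 0.20 or more. All spots with the replicate block, added after seeing the data, gave 0 members past the threshold, medians of -0.15, 0.12 and 0.06, an adjusted p of 0.0508 for let-7b-5p in high fat diet against control, and 7 calls over all tested miRNAs in that comparison. miR-98-5p, with intensities under 20, is limited by its signal over background.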
